A study of Caenorhabditis elegans with 2 samples.

Results

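The distal intergenic peaks described here are weak UNC-3 chromatin immunoprecipitation sequencing (ChIP-seq) peaks of late Caenorhabditis elegans embryos that lie far from any protein-coding gene start. A peak qualified when it was nuclear, came from the list called on both replicates together, did not overlap a peak that passed the authors' irreproducible discovery rate (IDR) threshold, and had its summit outside every protein-coding gene, more than 2000 bp from every protein-coding transcription start site (TSS) and more than 200 bp from tRNA, snoRNA and snRNA genes. There were 2178 such peaks among the 14484 nuclear peaks below the threshold and the 15515 peaks of the whole pooled list. Every one was 480 bp wide.

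The worms were hermaphrodites of strain OP578, genotype unc-119(tm4063) III; wgIs578, in which the integrated wgIs578 transgene supplies UNC-3 fused at its C terminus to GFP and FLAG. Embryos were collected 4 h after synchronization by egg bleaching, chromatin of whole animals was sonicated, and anti-GFP antibody was used to pull down the fusion protein. Both libraries (2 in all) are biological replicates of 1 group, so no second condition can be compared. Whole embryos mix the few cells that make UNC-3 with all others, and both the unc-119 mutation and the transgene are present in each library.

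UNC-3 is the worm's sole COE protein, a relative of the vertebrate EBF factors, and COE proteins bind DNA as dimers at a short palindrome. In cholinergic motor neurons it acts as a terminal selector, a factor that switches on the genes by which such a neuron makes and releases acetylcholine. Most regulatory sequence described in this compact genome lies close to the gene start, and distal elements are fewer than in mammals. A list made as input for IDR holds background by construction, and the peaks below the threshold are here the weaker ones by pooled signal.

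The COE palindrome was the first property examined that the choice of these peaks did not use. Its letters are TCCCNNGGGA, where N is any base, and it reads the same on both strands. It stood within 100 bp of the summit at 15 of the 2178 peaks. Some of the 15 are printed below, among them every one whose peak was overlapped in only 1 replicate list. Those were the sites near F28F9.2, tkr-3, syg-1 and unc-17 (replicate 2 only) and R02D5.24 (replicate 1 only). The sequences below are shown because they carry the palindrome. They include the site upstream of a gene that defines cholinergic neurons, both sites in the interval between R02D5.4 and R02D5.24, and pairs with the same central bases. Each is the forward strand of WBcel235 (ce11), written 5′ to 3′ and named by the nearest protein-coding TSS, with the palindrome in capitals and 15 bases on either side.

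unc-17, chrIV:3627649-3627688: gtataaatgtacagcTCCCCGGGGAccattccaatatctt
syg-1, chrX:2518589-2518628: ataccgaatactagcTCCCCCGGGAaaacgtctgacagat
R02D5.4, chrV:14486809-14486848: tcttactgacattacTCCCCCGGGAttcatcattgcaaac
R02D5.24, chrV:14499063-14499102: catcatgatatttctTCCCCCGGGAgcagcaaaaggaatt
F08F3.1, chrV:5442594-5442633: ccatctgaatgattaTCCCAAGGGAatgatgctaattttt
tkr-3, chrIV:5125502-5125541: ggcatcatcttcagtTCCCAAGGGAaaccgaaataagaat
F28F9.2, chrIV:3845693-3845732: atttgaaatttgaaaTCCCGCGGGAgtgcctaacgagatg
Y69A2AR.16, chrIV:2532189-2532228: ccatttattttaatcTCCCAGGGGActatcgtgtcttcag

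No 2 of the 15 summit windows shared a run of 20 or more identical bases on either strand, so the matches at syg-1, R02D5.4 and R02D5.24, which have the same 10 bases, stand in different surroundings. None of the 15 windows held a 31-base word that occurs elsewhere in the genome. The palindrome's centre was a median of 38.5 bp from the summit, and 10 of 15 were within 50 bp.

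The 15 peaks made up 0.689% of the distal intergenic peaks (95% CI 0.386 to 1.13%), next to 0.614% of all nuclear sub-threshold peaks. Windows of the same width centred 1000 bp away held the palindrome at 2 peaks on the lower-coordinate side and 3 on the higher. The difference between summit and lower-coordinate window passed the exact McNemar test (p = 0.00235, 15 peaks with the match only at the summit against 2 only in the flank). Peaks chosen by the same rule from 1 replicate's own list had the palindrome at 0.363% without replicate 2 and 0.568% without replicate 1. Of 81752 adjoining windows laid over all bases the positional rule allows, 67 (0.0820%) held the palindrome. With 1 mismatch allowed in the 8 fixed bases, 107 peaks (4.91%, 95% CI 4.04 to 5.91%) carried it, and so did 516 of the 12306 other sub-threshold peaks (4.19%). Peaks in 1 interval are not independent, and intervals and tests here cover counting error only.

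**Figure D1:**
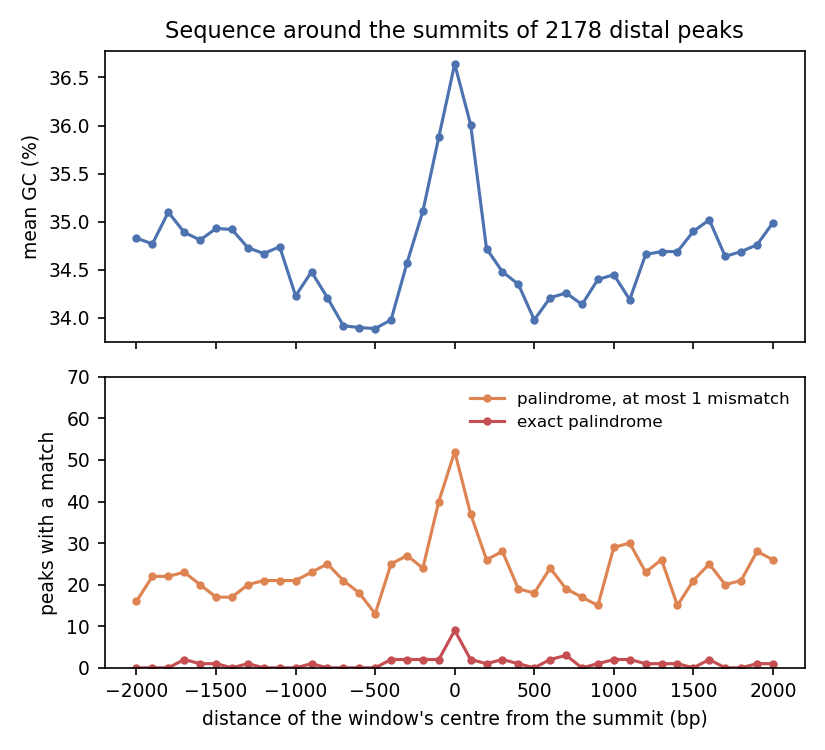
Mean GC content (upper, %) and number of peaks with the COE palindrome (lower) in windows of 50 bp to either side of points at distances of up to 2000 bp from the summits of the 2178 distal intergenic peaks. GC was 36.6% at the summit and 33.9% in the window 500 bp below it, the lowest of all windows. It was 34.8% at 2000 bp below the summit and 35.0% at 2000 bp above it. The exact palindrome was at 9 peaks in the central window and the match with at most 1 mismatch at 52.

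The palindrome was also found at weak peaks in other positions. Its share was 0.643% among 3111 promoter peaks, whose summits were at most 500 bp upstream or 100 bp downstream of a gene start, 0.647% among 4945 intron peaks and 0.350% among 1427 peaks in coding sequence, all below the threshold. No difference from the distal intergenic peaks passed Fisher's exact test (adjusted over 3 comparisons, p = 0.874 for promoters, 0.874 for introns and 0.755 for coding sequence). The odds ratios of distal against promoter, intron and coding peaks were 1.07 (95% CI 0.509 to 2.21), 1.06 (0.535 to 2.03) and 1.97 (0.679 to 6.95). Each interval includes 1, and at this number of matches a difference within these bounds is not excluded.

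The matches lay mostly at the stronger peaks of the group. By the signal value that the authors' caller gave each peak, whose scale the deposited files do not state, 4 of 136 peaks at 40 or more had the palindrome, 6 of 404 from 30 to 40, 2 of 574 from 25 to 30 and 3 of 1064 below 25. The other sub-threshold peaks showed the same trend, with 2.06%, 1.05%, 0.326% and 0.359% in these bands from strongest to weakest. Distal intergenic peaks with the palindrome had a median signal of 35.6 and the remaining distal intergenic peaks 25.1. At the 64 IDR peaks in the same kind of position the palindrome was found at 6 (9.38%, 95% CI 3.52 to 19.3%).

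Among the 15, the strongest was upstream of R02D5.4, an uncharacterized gene, with a pooled signal of 45.4. The strongest overlapping peaks of replicates 1 and 2 had signals of 23.4 and 20.9. The peak near F08F3.1 (43.7) had 18.8 and 24.9, and its summit lay in an ncRNA gene. The peak near F28F9.2 (43.3) was overlapped in replicate 2 only, at 41.3, and the peak near Y69A2AR.16 (42.6) in both, at 23.3 and 18.9. Both replicate lists therefore held a peak that overlapped, by at least 1 bp, 3 of these 4 strongest peaks.

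The other 11 sites had pooled signals below these. The peak 3380 bp upstream of syg-1, which encodes an immunoglobulin superfamily protein that places synapses in a motor neuron, had a pooled signal of 35.6 and was overlapped in replicate 2 only (19.5). The peak 3478 bp upstream of tkr-3, which encodes a receptor of the tachykinin family, had 37.2 and was also overlapped in replicate 2 only (24.2). Those near ZK1307.7 (34.4) and piki-1 (33.1), the latter a phosphoinositide 3-kinase gene, were overlapped in both replicates, at 17.9 and 20.9 for ZK1307.7 and at 16.9 and 19.9 for piki-1. The others were nearest to fipr-17 (36.96), cup-2 (35.9), Y75B8A.7 (29.8), DH11.5 (29.0), R02D5.24 (21.02) and mak-2 (20.6). The R02D5.24 peak was overlapped in replicate 1 only (16.1). In all, 10 of the 15 were overlapped in both replicate lists, 11 lay upstream of their nearest TSS, and none was in an interval between 2 converging genes. The shares over all distal intergenic peaks were 47.02%, 67.9% and 11.2%. The counts of the 15 were not tested against these shares.

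The peak with the palindrome at unc-17 was among the weakest. The gene encodes the vesicular acetylcholine transporter and shares its locus with cha-1, the choline acetyltransferase gene. The peak (IV, 3627474 to 3627953) had its summit 3015 bp upstream of the unc-17 TSS and a pooled signal of 22.8, which was rank 11003. A second peak overlapped it, 3341 bp upstream, with a signal of 24.1 and no palindrome within 100 bp of its summit. Replicate 1 listed no peak over either, and replicate 2 listed 1 peak with a signal of 15.4 over both, so these are 1 observation in 1 replicate.

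Support in the replicates followed peak strength. Of the 2178 peaks, 1024 (47.02%, 95% CI 44.9 to 49.1%) were overlapped, by at least 1 bp, by a peak of both replicate lists. Replicate 1 alone overlapped 506, replicate 2 alone 585 and neither list 63. The share over all nuclear sub-threshold peaks was 47.2%, and no difference from the 12306 others was detected (odds ratio 0.992, 95% CI 0.904 to 1.09, Fisher's exact p = 0.870). With overlapping distal intergenic peaks merged the share was 44.3% (p = 0.0161), and with the others merged too the difference was 0.259 points (Fisher's exact p = 0.844). Stricter rules lowered the share in both lists. It was 38.1% when a larger part of the shorter peak had to be covered. It was 23.1% when the summits had to lie within 100 bp. By the 1 bp rule it was 27.9% for distal intergenic peaks with a signal from 20 to 25, 48.9% from 25 to 30, 78.7% from 30 to 40 and 94.1% from 40 up. The pooled list was called on both replicates, so this is a description of support rather than an independent repeat. Overlapping peaks often share a replicate peak; the 2178 merge to 1971 regions.

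**Figure D2:**
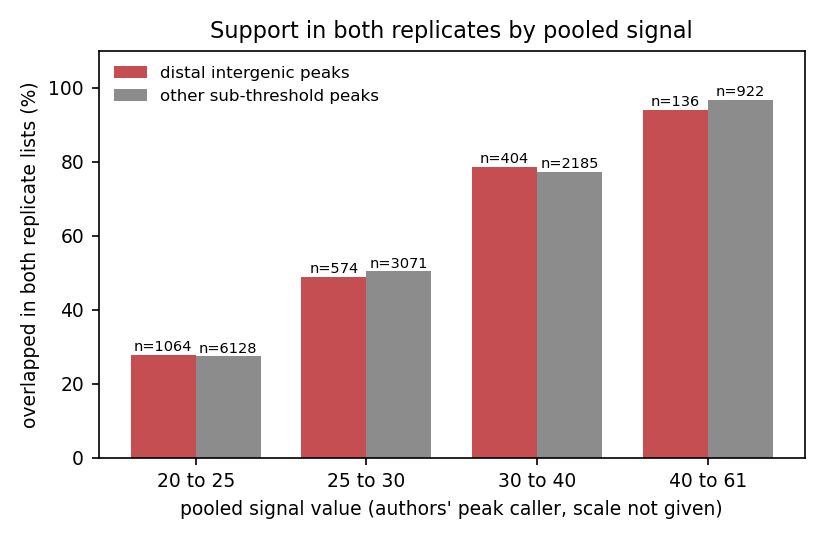
Percentage of peaks overlapped by at least 1 bp in both replicate lists, by band of pooled signal value, for distal intergenic peaks (red) and all other nuclear sub-threshold peaks (grey), with the number of peaks above each bar. The share goes from 27.9% in the weakest band to 94.1% in the strongest for distal intergenic peaks, and from 27.5% to 96.7% for the others.

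Within those found in both lists the 2 replicates ranked the peaks only loosely alike. Replicate 1 signals ran from 10.8 to 42.2 with a median of 15.4, and replicate 2 signals from 10.3 to 39.3 with a median of 15.5. Across the 1024 peaks Spearman's coefficient was 0.155 and Pearson's r on log2 values 0.180. This is a description across peaks, which share both libraries and a narrow range of signal fixed by the threshold.

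**Figure D3:**
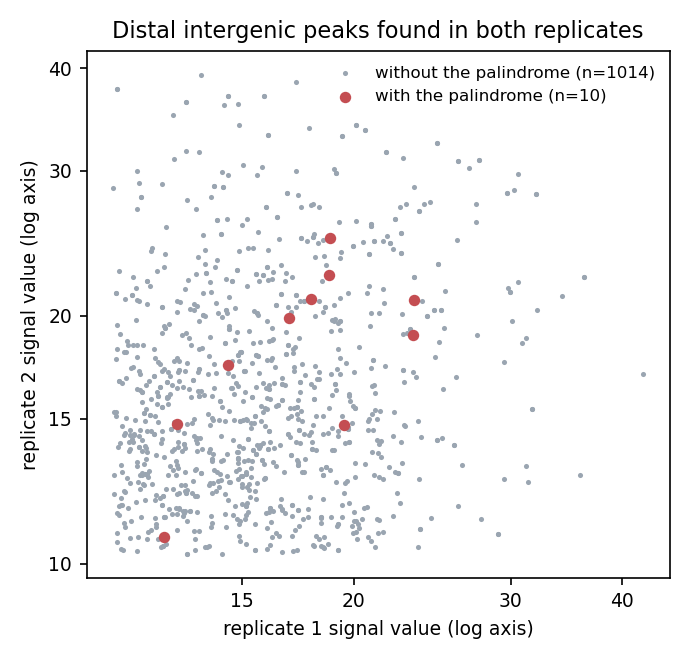
Strongest overlapping peak's signal value in replicate 1 (horizontal) and replicate 2 (vertical), both log axes, for the 1024 distal intergenic peaks overlapped in both lists; red points are the 10 with the COE palindrome. Points form a cloud with little shared trend, with a Spearman's coefficient of 0.155.

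Most of these peaks had high deposited q-values. Of the 2178, 49 (2.25%) had a q-value of at most 0.05, against 3.49% of all nuclear sub-threshold peaks. At a q-value of at most 0.1 there were 97 (4.45%, against 5.52%) and at most 0.5 there were 445 (20.4%, against 20%), and the median q-value was 0.805. The threshold had already removed the strongest peaks. Signal ran from 20.1 to 60.1 with a median of 25.1, against 26.4 for promoter, 24.6 for intron and 23.8 for coding peaks below the threshold. The strongest distal intergenic peak (60.1) stood just under the weakest IDR peak (60.2, near lev-10). At the distance limit, a peak 2003 bp from the TSS of Y39B6A.5 (signal 21.02) was included and one 2000 bp from that of F53A2.1 (24.96) was not.

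The 10 strongest peaks, named for a signal that places them just under the threshold, were near genes of mixed function. The first was 4405 bp upstream of ztf-6, a zinc finger gene (I, 11202277 to 11202756), with 27.6 in replicate 1 and 31.0 in replicate 2. The peak 2345 bp upstream of aex-6, the worm Rab27 gene (I, 13547293 to 13547772, pooled signal 59.6), had 29.7 and 28.2. That near H11E01.3 (X, 1602201 to 1602680, 59.5) had 30.2 and 28.4. All 3 were overlapped in both replicate lists, which were called separately on a scale that is not stated.

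The peak 3167 bp upstream of gpb-1, the G protein beta subunit gene (II, 11751538 to 11752017, 57.4), had 13.5 in replicate 1 and 39.3 in replicate 2. The peak 2501 bp upstream of hda-4, a class II histone deacetylase gene (X, 16726818 to 16727297, 55.5), had none in replicate 1 and 42.9 in replicate 2. Replicate 1 thus listed no peak over the latter. The remaining 5 were near F47G4.4 (58.8), ptr-5, a patched-related gene (57.7), mrpl-20, a mitochondrial ribosomal protein gene (57.7), F47E1.4 (56.3) and dlk-1, a kinase gene needed for axon regeneration (55.1), and each was overlapped in both replicates. Of the 10, 9 lay upstream of the nearest TSS, next to 67.9% of all distal intergenic peaks. None carried the palindrome, which only 4 of the 136 peaks with a signal of 40 or more had. These 10 peaks are too few to read either count as a difference.

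Along the genome, distal intergenic peaks were spread through the space open to them. The positional rule allows 16.4 Mb, or 16.4% of the nuclear genome, and the peaks were 15.04% of the nuclear sub-threshold list. Their density was 132.5 per Mb, against 146.8 sub-threshold peaks per Mb in the rest of the genome. Density was highest on chromosomes III (180.9 per Mb) and I (173.1) and lowest on V (107.0), with II at 130.0, X at 126.2 and IV at 116.2. All nuclear sub-threshold peaks were also most numerous on I (2710) and III (2497), before V (2414), IV (2360), II (2258) and X (2245). Their density by chromosome was not computed, so the pattern cannot be called particular to distal intergenic peaks. On X lay 488 peaks (22.4%, 95% CI 20.7 to 24.2%), and X holds 23.5% of the allowed bases (exact binomial test, adjusted over 4 shares, p = 0.216). In the outer parts of the autosomes, beyond the central part of 3 equal ones, lay 72.5% of autosomal peaks, against 71.0% of the allowed bases there (adjusted exact binomial p = 0.216). Neither share passed the test, but both did outside all annotated genes except piRNA genes, where the X share was 21.8% (adjusted exact binomial p = 0.00568) and the end share 72.7% (adjusted p = 0.00474). The end share also passed without replicate 1 (73.1%, adjusted exact binomial p = 0.0273), and with ends of 0.25 of the chromosome each it was 54.4%, under that of the bases (exact binomial p = 0.525).

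Distance from the gene start made little difference up to 10 kb. Density was 138.7 per Mb from 2000 to 3000 bp, 141.7 from 3000 to 4000, 127.6 from 4000 to 5000, 129.6 from 5000 to 7500, 130.0 from 7500 to 10000 and 87.3 beyond. The 64 IDR peaks in the same positions had a density of 5.57 per Mb in the nearest band and 1.06 in the farthest, from 30 peaks and 1 peak. The median distance of the distal intergenic peaks was 3643 bp and the longest 37529 bp.

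**Figure D4:**
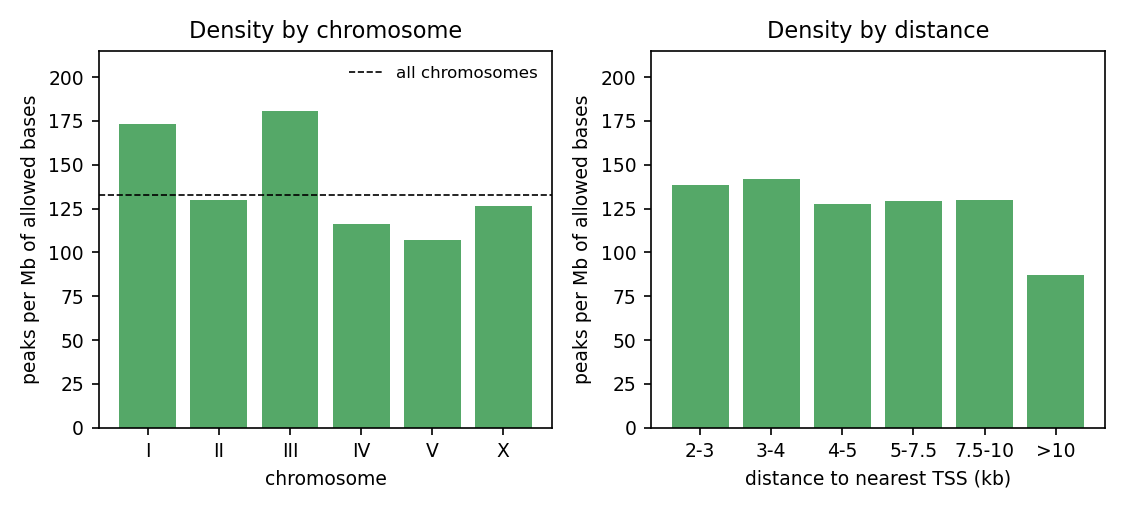
Distal intergenic peaks per Mb of the bases that the positional rule allows, by chromosome (left, dashed line at 132.5 for all chromosomes) and by distance to the nearest protein-coding TSS (right). Chromosomes III and I stand above the line, and density is between 127.6 and 141.7 per Mb in every distance band up to 10000 bp. Other sub-threshold peaks are not shown.

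Peak density differed with the orientation of the flanking genes. Intervals between the ends of 2 converging genes held 244 peaks (11.2%, 95% CI 9.91 to 12.6%) but 17.1% of the allowed bases, and this share was lower than that of the bases (exact binomial test, adjusted p = 9.41e-14). Density there was 87.0 per Mb, compared with 145.5 between genes in tandem and 136.0 between diverging genes. Relative to the nearest TSS, 1478 peaks (67.9%, 95% CI 65.9 to 69.8%) lay upstream, against 62.3% of the allowed bases. Windows with a 31-base word that recurs in the genome made up 16.3% of the peaks and 30.6% of the allowed bases. Where no such word occurred, the convergent share was 9.60% of 1822 peaks and 12.4% of 56743 positions, a narrower gap that still passed the test (exact binomial p = 0.000215).

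Genes that do not code for protein gave opposite pictures by type. All types combined covered 230 summits (10.6%, 95% CI 9.30 to 11.9%) and 14.8% of the allowed bases, a lower share (exact binomial test, adjusted p = 1.80e-08); the figure for all nuclear sub-threshold peaks was 4.85%. Pseudogenes, gene copies that have lost their function, held 102 summits (4.68%, 95% CI 3.83 to 5.66%) against 11.6% of the bases. Genes annotated as ncRNA held 101 (4.64%, 95% CI 3.79 to 5.61%) against 1.78%. The summits in long intergenic non-coding RNA genes numbered 27 (1.24%, 95% CI 0.818 to 1.80%, against 0.807%). Those in piRNA genes, which encode the 21U-RNAs of the germline, numbered 3 (0.138%, 95% CI 0.0284 to 0.402%, against 0.620%), and none lay in miRNA, rRNA or antisense RNA genes. Over all 14484 nuclear sub-threshold peaks, 463 summits lay in ncRNA genes and 160 in pseudogenes. Types were not tested singly. Among windows with no recurring 31-base word, pseudogenes still held 3.51% of peaks against 8.94% of positions and ncRNA genes 5.27% against 2.21%.

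**Figure D5:**
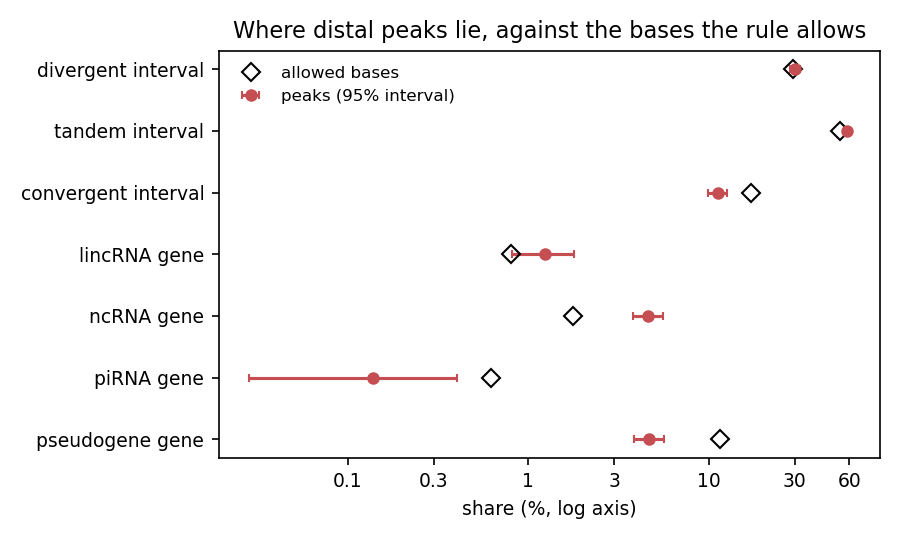
Share of the 2178 distal intergenic peaks (red points with exact 95% intervals, log axis) and share of the allowed bases (open diamonds) in each kind of intergenic interval and in 4 types of gene that do not code for protein. Convergent intervals, pseudogenes and piRNA genes hold less of the peaks than of the bases, and ncRNA genes hold more.

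Base composition at the summits was shifted towards GC. Median GC was 35.6% within 100 bp of the summit and 33.8% in the windows 1000 bp to either side. It was higher at the summit than in the lower-coordinate window at 1222 peaks and lower at 916 (57.2% higher, 95% CI 55.03 to 59.3%, exact sign test p = 3.91e-11). The other sub-threshold peaks had a median GC of 35.8% at the summit. It was 36.3% for promoter, 34.3% for intron and 39.3% for coding peaks. Repeat-masked sequence made up 39.3% of the distal intergenic summit windows on average and 41.1% of windows over the allowed bases. The GATA-type motif TGATAA, searched on both strands like the others, was at 12.1% of summits at 17.2% and 16.7% in the flanks and at 14.6% of the other sub-threshold peaks. The homeodomain core TAATTA was at 8.72%, against 10.3% and 11.3% in the flanks and 9.64% of the other peaks. The E-box CAGCTG was at 3.49%, against 3.49% and 2.85% in the flanks and 3.85% of the other peaks. The repeat GAGAGAGA was at 4.55% (95% CI 3.71 to 5.51%), against 2.71% and 2.11% in the flanks and 2.88% of the other sub-threshold peaks. A run of 8 bases that are A or T was at 85.3%, against 87.9% and 88.2% in the flanks and 86.6% of the other peaks. A match describes these letters only.

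The nearest genes were read against how much distal space each group of genes has around it. Over all 19973 nuclear protein-coding genes, 1531 (7.67%) were nearest to at least 1 peak. Cholinergic transmission genes, which make, load and break down acetylcholine, had 4 peaks at 2 of 8 genes, 0.184% of the peaks and 0.0879% of the allowed bases. Besides the unc-17 pair these were an overlapping pair at ace-2, an acetylcholinesterase gene, with pooled signals of 28.7 and 20.4 and a shared peak of 15.2 in replicate 1 and 12.8 in replicate 2. Acetylcholine receptor genes had 1 peak at 1 of 37 genes, acr-25 (21.7), and 0.229% of the bases.

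Genes of transcription factors were next. The 17 motor neuron transcription factor genes had 3 peaks (0.138% of the peaks and 0.260% of the bases), at vab-7 (22.6), lim-4 (22.5) and alr-1 (20.5), each overlapped in 1 replicate only. The 6 Hox genes, which set position along the body, had 4 at 3 genes, at nob-1 (34.4 and 28.0), lin-39 (23.7) and egl-5 (21.9), or 0.184% of the peaks and 0.267% of the bases. Of these 4, 1 at lin-39 was overlapped in both replicates. Homeobox genes of the ceh- series held 0.551% of the peaks and 0.559% of the bases, and nuclear hormone receptor genes 2.02% and 1.99%.

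Genes of synapses and axons also gave small counts, in which overlapping peaks stand as separate ones. Panneuronal genes had 8 peaks at 5 of 27 genes (0.367% of peaks, 0.245% of bases). Of these, 3 lay upstream of unc-10, which encodes the synaptic active zone protein RIM (54.9, 40.8 and 31.5); the first pair overlap and share peaks of 24.8 in replicate 1 and 32.4 in replicate 2, the strongest at X, 7284582 to 7285061. The others were at cla-1 (29.4), snt-1 (23.7 and 21.5, an overlapping pair), snb-1 (22.2) and elks-1 (21.1). The snb-1 peak was overlapped in neither replicate list, and the other panneuronal peaks in both. Axon guidance genes had 11 peaks at 8 of 30 genes (0.505% of peaks, 0.386% of bases), the strongest at sax-7, an L1-type cell adhesion gene (43.96, with 24.9 and 18.6 in the replicates), plx-2, a plexin gene (36.6 and 30.5, over the same replicate peaks), smp-2, a semaphorin gene (29.0) and plx-1 (28.5). Neuropeptide genes had peaks in proportion or below it, 8 at flp- genes (0.367% against 0.456% of bases) and 9 at nlp- genes (0.413% against 0.717%).

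Chemoreceptor, F-box and C-type lectin genes held less of the peaks than of the bases. Nuclear hormone receptor genes, also a large family, did not (2.02% of the peaks and 1.99% of the bases). Chemoreceptor genes had 43 peaks (1.97%) and 4.23% of the bases, F-box genes 9 (0.413%) and 1.33%, and C-type lectin genes 4 (0.184%) and 0.613%. Ribosomal protein genes had 9 peaks at 4 of 76 genes (0.413% against 0.183%), collagen genes 8 (0.367% against 0.524%), insulin-like genes 4 (0.184% against 0.221%), bHLH genes 4 (0.184% against 0.386%), MATH domain genes 2 (0.0918% against 0.186%) and histone genes 2 (0.0918% against 0.0209%). No list was tested, and these shares are descriptions.

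Some long intervals held several peaks. The counts per interval were not compared with those of peaks placed in proportion to allowed bases. Of 4807 intergenic intervals with allowed bases, 1313 (27.3%) held a peak, 813 of them 1, 303 of them 2 and 197 of them 3 or more. The interval from snt-1, a synaptotagmin gene, to egl-27, a chromatin factor gene (II, 6816434 to 6835007), held 11, with signals from 20.5 to 38.8, of which 5 were overlapped in both replicates. Another, from sri-5 to ztf-6 (I, 11186207 to 11206921), held 9, with the strongest peak of all among them, and 7 were overlapped in both. Neighbouring peaks in these intervals partly overlap and share replicate peaks, so their number overstates the separate sites.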

How the data were processed

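The authors deposited peak lists in narrowPeak layout. Per the labels and the accompanying notes, each replicate list (20517 and 21474 peaks) was called on 1 alignment with a control alignment, the pooled list on both, and the IDR list (754 peaks) was derived from all of these. The deposited signal score of each peak is the caller's own value and served to rank and describe peaks within its list; values of different lists are set side by side only as a description. The deposited −log10 q-value was converted to a q-value. The sources used here do not give the aligner, caller, IDR threshold or depth. The control was not analysed here, and the ce10 copies were not used.

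Genes are from Ensembl release 115 on WBcel235 (ce11), with 29304 protein-coding TSS positions, and sequence is RefSeq's copy of the same assembly. The peaks and the gene lists were chosen with earlier results of these data known. Sub-threshold means no overlap of at least 1 bp with an IDR peak. Allowed bases are all nuclear positions that meet the positional rule. Tests were exact (McNemar, Fisher, binomial, sign) in scipy 1.17.1 under Python 3.11.15, with Benjamini-Hochberg adjustment over 3 class comparisons and over 4 positional shares, and Clopper-Pearson 95% intervals. Procedures for the palindrome against its flank, the X share and the non-coding share were tested on simulated data. The non-coding share was tried only with no difference built in, and the other tests were not simulated. The text names the 10 strongest peaks, those with the palindrome (at most 20), up to 5 per neuronal list (all 8 panneuronal peaks and the first 5 for axon guidance) and the 3 fullest intervals, of which 1 is not reported here. The comparison of windows by recurring 31-base words, and the merging of overlapping peaks on both sides, were added after seeing the data.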

Additional observations from a re-analysis of the deposited data

How the results depend on the processing

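Of 81 alternative values for 11 results, 68 were classed as unchanged. For a tested result this meant the same direction and call, and for the number of peaks only a similar size. Under every alternative tried the palindrome's excess over the flank, the low convergent and non-coding shares and the higher GC at the summit passed their tests. The palindrome share was 0.363 to 0.568% with each replicate left out. The number of peaks was 3355 with a TSS distance over 1000 bp, 1431 over 3000 bp and 1089 for those at or above the median signal, by construction. From 1 replicate's own list it was 3168 without replicate 1 and 3032 without replicate 2, both classed as unchanged. Outside all annotated genes except piRNA genes, the X share (21.8%, adjusted exact binomial p = 0.00568) was below that of the allowed bases and the chromosome end share (72.7%, adjusted p = 0.00474) above it; the cause was not tested. The end share was 71.7 to 73.1% with each replicate left out, above that of the bases by the test without replicate 1 (adjusted exact binomial p = 0.0273), and 54.4%, below that of the bases, with ends of 0.25 of the chromosome each (exact binomial p = 0.525). With overlapping distal intergenic peaks merged as planned, 44.3% were found in both replicates, fewer than among the other peaks left unmerged (Fisher's exact p = 0.0161). With both sides merged, an alternative chosen after seeing that result, the share was the same 44.3% and the difference 0.259 points the other way (Fisher's exact p = 0.844). The palindrome difference from promoter peaks was -0.0516 to -0.0121 points with each replicate left out. That from intron peaks was -0.0753 to 0.146 points, and -0.0519 points in a 50 bp window; none passed the test. Support in both replicates needs both lists and was not recomputed with one left out, and the non-coding share could not be recomputed outside non-coding genes. No paired analysis was possible because there is 1 group. Depth is unknown, and 15 palindromes limit any comparison of their share.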
